A study of Mus musculus with 6 samples.

Results

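The conjugation of ISG15, a ubiquitin-like protein, and the attachment of ADP-ribose are protein modifications whose enzymes are encoded by genes of the interferon response. Their expression in the epididymal white adipose tissue (WAT) was examined through 10 genes, *Isg15*, *Uba7*, *Ube2l6*, *Herc6*, *Usp18*, *Trim25*, *Trim21*, *Parp9*, *Dtx3l* and *Parp14*, which were chosen by gene symbol and were all among the 24346 genes measured. Polyadenylated RNA was sequenced from 3 AdArmc5 KO and from 3 Armc5 flox mice, with 1 library for each mouse. AdArmc5 KO carried the floxed *Armc5* allele together with the *Adipoq-Cre* transgene, which is active in adipocytes, so that exons 2 and 3 are removed there and not in the other cells of the tissue. Armc5 flox carried the same floxed allele without Cre, and in both genotypes the *lacZ* and neomycin resistance cassettes had already been taken out. All mice were 24 weeks old, had been without food for 24 h and had then eaten again for 6 h. The comparison asks how the loss of *Armc5* in adipocytes, which encodes a substrate adaptor of a CUL3 ubiquitin ligase, bears on the gene expression of the refed tissue.

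ISG15 is made in response to type I interferon and is joined to target proteins by a chain of enzymes that resembles that of ubiquitin. UBA7 activates it, UBE2L6 carries it, HERC6 is its main ligase in mouse, and USP18 takes it off again and also restrains signaling from the type I interferon receptor. PARP9 and its partner DTX3L, a ubiquitin ligase, form a complex that takes part in interferon responses and DNA repair, and PARP14 transfers single ADP-ribose units to proteins. TRIM25 and TRIM21 are ubiquitin ligases of innate immunity, and TRIM25 can also act as an ISG15 ligase.

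The signal that induces such genes ends at the interferon-stimulated response element (ISRE), a DNA motif bound by the transcription factor complex ISGF3. Promoter windows from RefSeq (GRCm38.p6), 250 bases before to 50 after the start of a gene, were found for 7 of the 10 genes, those other than *Usp18*, *Parp9* and *Parp14*. The core of the ISRE was searched as GAAANNGAAA on both strands. It was in the windows of *Isg15* and *Trim21*, which are shown because these are the windows with a match and because these genes stand at opposite ends of the fold changes below. The windows are written in the direction of the gene, with the bases of the matches in capitals, at chr4:156200769-156201068 (minus strand) for *Isg15* and chr7:102565433-102565732 (minus strand) for *Trim21*.
Isg15: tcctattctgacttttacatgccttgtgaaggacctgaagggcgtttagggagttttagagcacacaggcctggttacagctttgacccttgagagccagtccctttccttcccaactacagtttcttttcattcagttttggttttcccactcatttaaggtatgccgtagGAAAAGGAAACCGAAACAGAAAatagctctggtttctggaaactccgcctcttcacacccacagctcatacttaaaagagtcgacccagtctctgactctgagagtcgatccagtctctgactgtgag
Trim21: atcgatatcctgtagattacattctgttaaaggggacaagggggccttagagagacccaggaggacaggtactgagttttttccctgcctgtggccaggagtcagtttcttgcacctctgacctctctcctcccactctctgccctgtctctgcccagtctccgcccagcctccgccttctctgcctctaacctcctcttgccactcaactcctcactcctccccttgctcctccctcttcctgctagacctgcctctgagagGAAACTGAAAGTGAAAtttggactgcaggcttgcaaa
The window of *Isg15* held 3 overlapping cores between 78 and 57 bases before the start. That of *Trim21* held 2 overlapping cores between 14 and 29 bases after the start. Of all 32851 windows, 1131 (3.44%) held the ISRE core. A match describes letters in this window and is not evidence of binding.

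**Figure D1:**
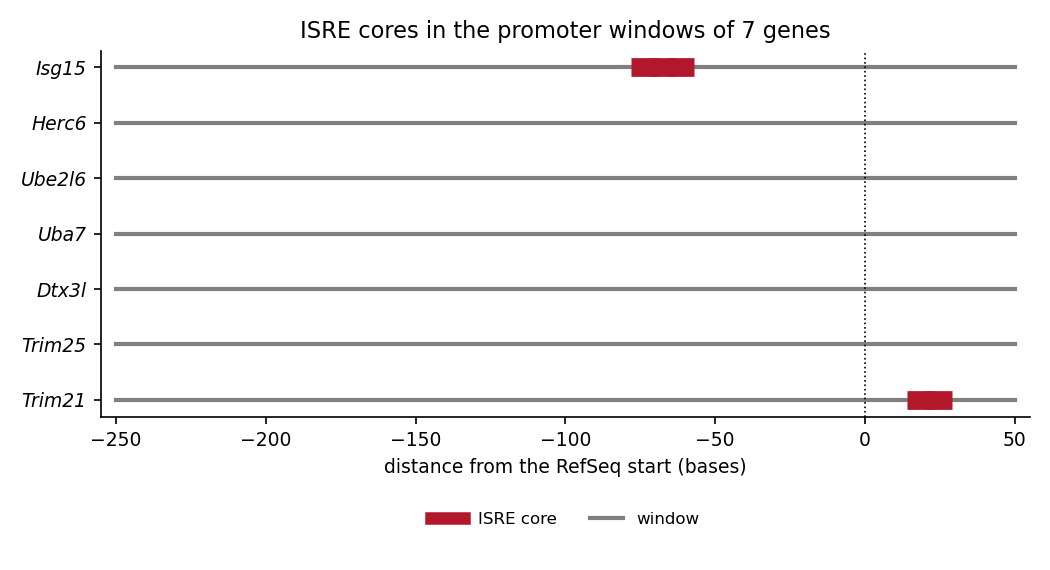
Position of the ISRE core in the promoter windows of 7 genes, with the distance from the RefSeq start in bases on the horizontal axis and 1 line per gene. Red blocks mark the cores, which lie before the start in *Isg15* and after it in *Trim21*.

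The values are FPKM, in which the fragments of a gene are divided by the length of its exons and by the mapped fragments of the library, and the libraries held between 25320731 and 38311561 fragments. The 10 genes rested on 118 to 5974 fragments per library. *Armc5* had an FPKM of 3.66 and 4.48 in the first 2 AdArmc5 KO libraries and of 5.82 in that labelled AdArmc5 KO replicate 3, against 5.12, 5.66 and 5.58 in Armc5 flox. The library labelled AdArmc5 KO replicate 3 thus exceeded all of Armc5 flox in the gene that its label says was deleted. The FPKM covers all exons and all cells of the tissue, while exons 2 and 3 are removed in adipocytes only. *Armc5* overlapped between genotypes (log2 fold change −0.21, unadjusted p = 0.26 from limma). *Scd1* was lower in each AdArmc5 KO library than in any Armc5 flox library (log2 fold change −2.87, adjusted p = 0.67 from limma). The study, by its own procedure, called *Scd1* lower in AdArmc5 KO at a false discovery rate under 0.05, so calls depend on the procedure. Whether the label is right was not tested. The 8 adipocyte markers, among them *Adipoq*, *Plin1* and *Fabp4*, were present in every library, with a summed FPKM of 23363 to 35241 in AdArmc5 KO and 31061 to 44076 in Armc5 flox. The library labelled AdArmc5 KO replicate 3 also held transcripts of the epididymis and vas deferens (summed FPKM of 6 markers 3808). Armc5 flox replicate 3 held a much smaller amount of them (19.98), and the remaining libraries had 0.38 to 1.44. AdArmc5 KO replicate 2 and Armc5 flox replicate 1 held those of ciliated epithelium (122 and 142, against at most 4.05). The part of these transcripts in the results was not tested. Values without AdArmc5 KO replicate 2 and Armc5 flox replicate 1, and also without the library labelled AdArmc5 KO replicate 3, are given below. Armc5 flox replicate 3 was kept in both.

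All 10 genes passed the filter on low values (FPKM of at least 1 in at least 3 libraries). Their mean was higher in AdArmc5 KO for each of the 10, but the size differed widely. *Usp18* and *Isg15* were about 3 times as high as in Armc5 flox, *Herc6* and *Parp14* were intermediate, and *Trim21* was nearly level. Tested with limma on log2(FPKM + 1) over 12670 genes, 0 of the 10 passed an adjusted p of 0.05, as did 0 of all genes (0%), of which 425 had an unadjusted p under 0.05. At that unadjusted p, 4 of the 10 were higher in AdArmc5 KO (*Isg15*, *Usp18*, *Herc6* and *Parp14*), against 2.18% of all genes tested. In 3 of them, *Isg15*, *Usp18* and *Herc6*, all AdArmc5 KO values exceeded all Armc5 flox values, against 3.54% of all genes tested. The 10 genes were chosen with earlier results of these data known, so these contrasts are a description and not a test. The median log2 fold change of the 10 was 0.38, and that of all genes was −0.033, with 43.5% of all genes above 0.

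**Figure D2:**
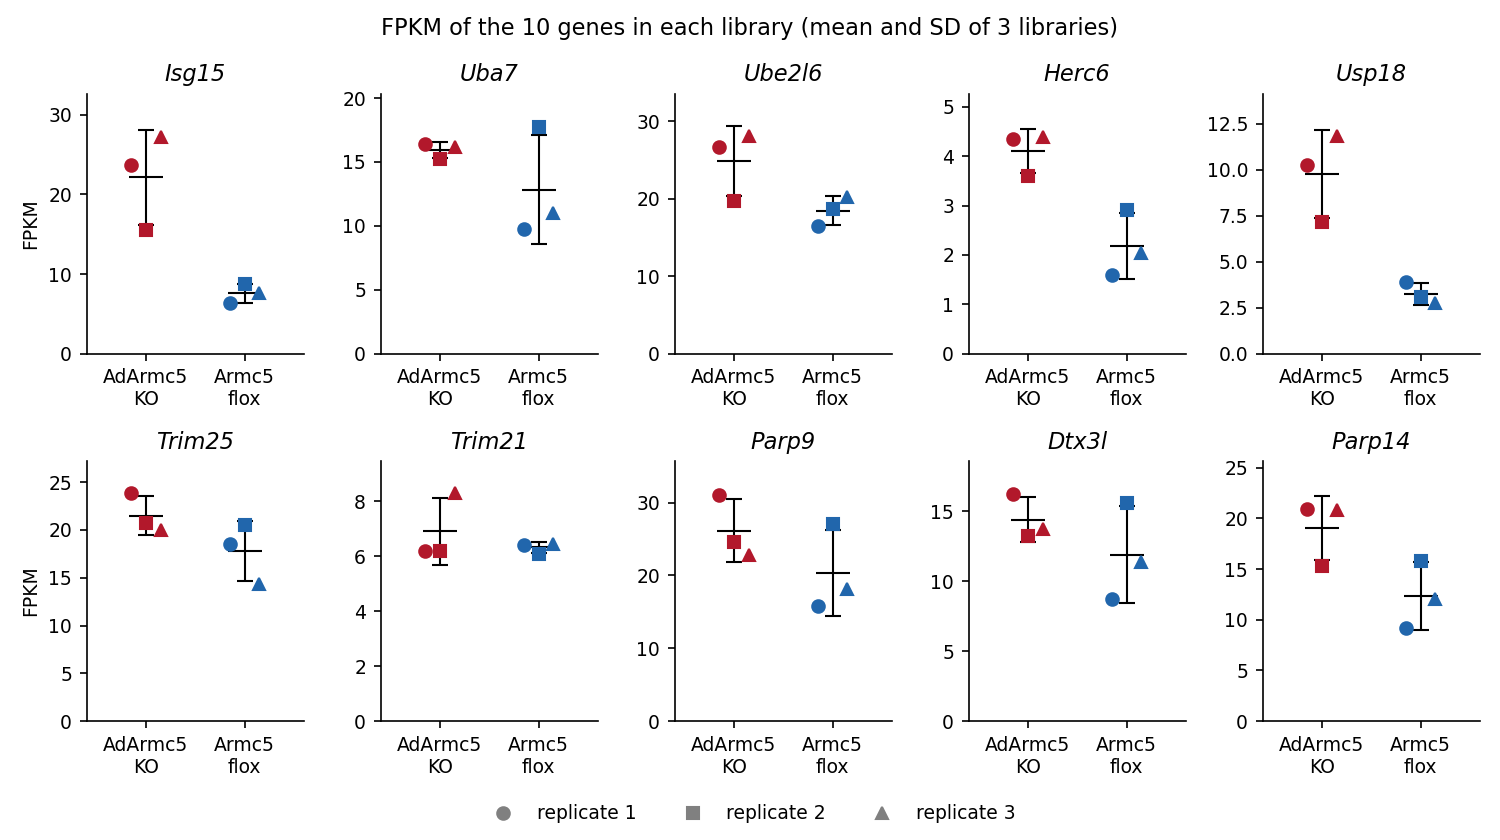
FPKM of each of the 10 genes by library, AdArmc5 KO in red and Armc5 flox in blue, with 1 symbol per replicate number and black bars for the mean and SD of 3 libraries. Each panel has its own vertical axis. The genotypes are apart for *Isg15*, *Usp18* and *Herc6* and overlap for the other 7.

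*Isg15* (NCBI Gene 100038882), the modifier itself, lies on chromosome 4 of mm10 from 156199424 to 156200818 on the minus strand. It had an FPKM of 23.7, 15.6 and 27.2 in AdArmc5 KO replicates 1, 2 and 3, against 6.36, 8.69 and 7.64 in Armc5 flox. The lowest AdArmc5 KO library was still well above the highest Armc5 flox library. Gene expression of *Isg15* averaged 22.1 ± 5.95 in AdArmc5 KO and 7.57 ± 1.17 in Armc5 flox (SD, n = 3 each), a ratio of 2.92. The log2 fold change was 1.41 (standard error 0.23, 95% interval 0.86 to 1.96), the 43rd highest of all genes tested, with an unadjusted p of 0.000679 and an adjusted p of 0.65 from limma. The order of the genes by level also differed between genotypes, as *Isg15* was the 3rd highest of the 10 in AdArmc5 KO and the 7th in Armc5 flox.

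The genes that activate and carry ISG15 were much closer between genotypes. *Uba7*, the E1 enzyme (chromosome 9, 107975567 to 107984056, plus strand), had an FPKM of 16.4, 15.2 and 16.1 in AdArmc5 KO, against 9.74, 17.7 and 11.04 in Armc5 flox. The 3 AdArmc5 KO libraries were nearly equal, and Armc5 flox replicate 2 exceeded all of them. Its log2 fold change was 0.33 (95% interval −0.20 to 0.86, adjusted p = 0.98 from limma). *Ube2l6*, the E2 enzyme (chromosome 2, 84798828 to 84810003, plus strand), had an FPKM of 26.6, 19.7 and 28.1 in AdArmc5 KO, against 16.4, 18.7 and 20.2 in Armc5 flox. Here the groups overlapped by a single library on each side, AdArmc5 KO replicate 2 lying just under Armc5 flox replicate 3. The log2 fold change of *Ube2l6* was 0.40 (95% interval −0.017 to 0.81, adjusted p = 0.98 from limma).

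Among the ligases, *Herc6* was the one without overlap between genotypes. *Herc6* (chromosome 6, 57580992 to 57665136, plus strand) had an FPKM of 4.35, 3.60 and 4.38 in AdArmc5 KO, against 1.59, 2.91 and 2.04 in Armc5 flox. It was the gene with the lowest mean of the 10 in both genotypes, and its ratio of means was 1.89. Its log2 fold change was 0.70 (standard error 0.19, 95% interval 0.24 to 1.17), with an unadjusted p of 0.00995 and an adjusted p of 0.98 from limma. *Trim25*, which also activates the RNA sensor RIG-I (chromosome 11, 88999403 to 89020294, plus strand), had an FPKM of 23.8, 20.7 and 19.9 in AdArmc5 KO, against 18.5, 20.5 and 14.3 in Armc5 flox. The groups overlapped through the library labelled AdArmc5 KO replicate 3 and Armc5 flox replicate 2, and the log2 fold change was 0.27 (95% interval −0.12 to 0.67).

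*Trim21*, the intracellular receptor for antibody-coated virus (chromosome 7, 102557920 to 102565482, minus strand), was the member with the smallest fold change. Its FPKM was 6.19, 6.18 and 8.31 in AdArmc5 KO, against 6.41, 6.08 and 6.45 in Armc5 flox. Replicates 1 and 2 of AdArmc5 KO lay within the range of Armc5 flox, and the library labelled AdArmc5 KO replicate 3 alone was higher. The log2 fold change was 0.10 (95% interval −0.25 to 0.45, adjusted p = 0.98 from limma). Without that library the log2 fold change was −0.025.

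*Usp18*, the protease that removes ISG15 (chromosome 6, 121245906 to 121270917, plus strand), had an FPKM of 10.3, 7.14 and 11.8 in AdArmc5 KO, against 3.90, 3.10 and 2.74 in Armc5 flox. As with *Isg15*, the lowest AdArmc5 KO value was in replicate 2 and was above all of Armc5 flox. The mean was 9.75 ± 2.39 in AdArmc5 KO and 3.25 ± 0.593 in Armc5 flox (SD, n = 3 each), a ratio of 3.005. The log2 fold change was 1.32 (standard error 0.21, 95% interval 0.82 to 1.83), with an unadjusted p of 0.000598 and an adjusted p of 0.65 from limma. The modifier and the enzyme that removes it thus differed between genotypes by similar ratios. *Usp41*, a paralog of *Usp18*, was not analysed here.

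*Parp9*, *Dtx3l* and *Parp14* lie near each other on chromosome 16. *Parp9* (35938470 to 35972621, plus strand) and *Dtx3l* (35926515 to 35939027, minus strand) are arranged head to head and share 558 bases in the RefSeq annotation, and *Parp14* (35831892 to 35871518, minus strand) ends 54997 bases before *Dtx3l* begins. Whether strand was used when fragments were assigned to genes is not given in the sources used here, so fragments from the shared bases cannot be ascribed to either gene with certainty. The FPKM of *Parp9* was 31.1, 24.6 and 22.8 in AdArmc5 KO, against 15.9, 27.03 and 18.2 in Armc5 flox. The FPKM of *Dtx3l* was 16.2, 13.2 and 13.7 in AdArmc5 KO, against 8.75, 15.6 and 11.4 in Armc5 flox. In both genes Armc5 flox replicate 2 exceeded the library labelled AdArmc5 KO replicate 3 as well as AdArmc5 KO replicate 2. The log2 fold change was 0.37 for *Parp9* (95% interval −0.18 to 0.92) and 0.28 for *Dtx3l* (95% interval −0.23 to 0.80), and both had an adjusted p of 0.98 from limma.

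*Parp14* had an FPKM of 20.9, 15.4 and 20.9 in AdArmc5 KO, against 9.16, 15.8 and 12.1 in Armc5 flox. The overlap was between the lowest AdArmc5 KO library, replicate 2, and the highest Armc5 flox library, also replicate 2. The means were 19.1 ± 3.20 in AdArmc5 KO and 12.4 ± 3.34 in Armc5 flox (SD, n = 3 each), and the log2 fold change was 0.60 (95% interval 0.062 to 1.15), with an unadjusted p of 0.0341 and an adjusted p of 0.98 from limma. The ratio of *Parp9* to *Dtx3l* was 1.91, 1.86 and 1.66 in AdArmc5 KO, against 1.81, 1.73 and 1.59 in Armc5 flox. This ratio overlapped between genotypes (exact permutation test, two-sided p = 0.4), while the levels of the pair varied more than this from library to library.

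**Figure D3:**
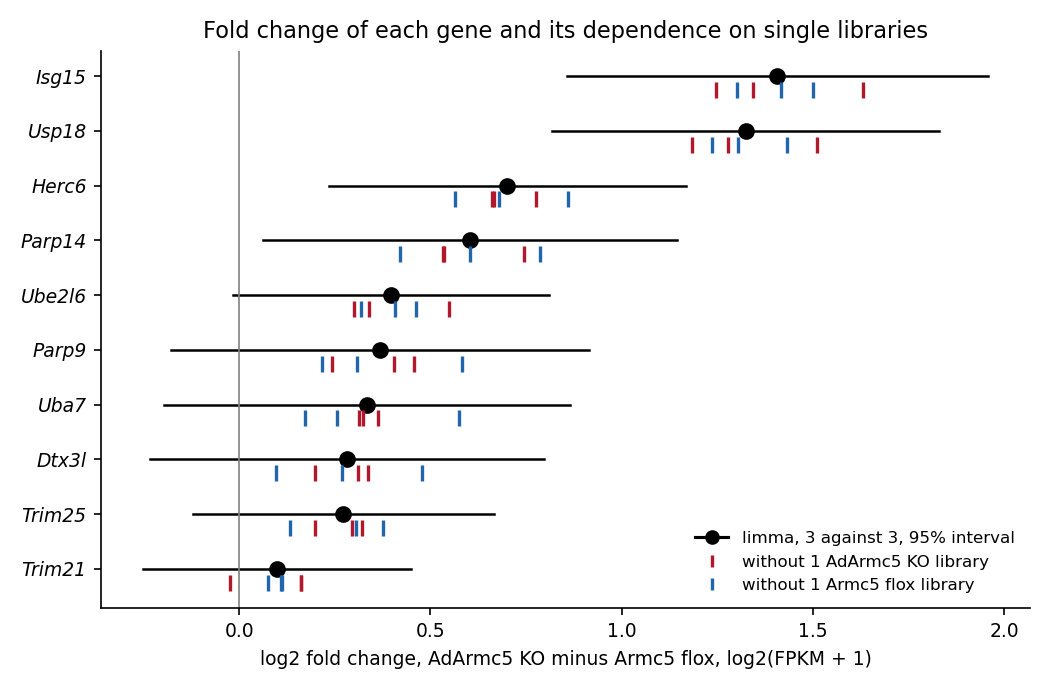
Log2 fold change of each gene, AdArmc5 KO minus Armc5 flox on log2(FPKM + 1), with the 95% interval from limma as a black line. Short red ticks leave out 1 AdArmc5 KO library and blue ticks 1 Armc5 flox library. The interval is above 0 for *Isg15*, *Usp18*, *Herc6* and *Parp14* and includes 0 for the other 6.

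The libraries were set beside each other through ratios within a library, which do not depend on its scaling. The ratio of *Isg15* to *Uba7* was 1.44, 1.02 and 1.68 in AdArmc5 KO, against 0.654, 0.491 and 0.692 in Armc5 flox. That is, *Isg15* exceeded its activating enzyme in each AdArmc5 KO library and was below it in each Armc5 flox library, in FPKM. Of the 9 ratios of *Isg15* to another of the 10 genes, 8 were higher in all AdArmc5 KO libraries than in any Armc5 flox library (exact permutation test, two-sided p = 0.1 for each, the smallest that 3 against 3 libraries can give). The exception was *Usp18*, for which the ratio was 2.30, 2.18 and 2.29 in AdArmc5 KO, against 1.63, 2.80 and 2.79 in Armc5 flox (exact permutation test, two-sided p = 1). The ratio of *Usp18* to *Uba7* was 0.626, 0.468 and 0.734 in AdArmc5 KO, against 0.400, 0.175 and 0.248 in Armc5 flox. These ratios share *Isg15* or *Uba7* and are not independent of each other. *Isg15* by itself did not overlap between genotypes, so the 8 of 9 is not a result about the other genes. The share over all genes was not computed.

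The genes also differed in which library was high. The highest Armc5 flox value was in replicate 2 for 7 of the 10 genes, but in replicate 1 for *Usp18* and in replicate 3 for *Ube2l6* and *Trim21*. Within AdArmc5 KO, replicate 2 was the lowest for 8 of the 10, while for *Trim25* and *Parp9* it was the library labelled AdArmc5 KO replicate 3. The mean log2(FPKM + 1) of the 10 genes was 4.05, 3.75 and 4.04 in AdArmc5 KO, against 3.20, 3.60 and 3.31 in Armc5 flox. Armc5 flox replicate 2 thus lay closest to AdArmc5 KO. Without that library, 8 of the 10 genes were higher throughout AdArmc5 KO than in any remaining Armc5 flox library, against 11.1% of all genes tested, and the median log2 fold change was 0.58.

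The order of the libraries was set beside that of macrophage markers. The summed FPKM of 16 macrophage markers was 2747, 1779 and 1559 in AdArmc5 KO, against 1211, 2335 and 1236 in Armc5 flox, so that the groups overlapped through Armc5 flox replicate 2. Of the 16, 15 had a log2 fold change above 0, with a median of 0.42, 2 had an unadjusted p under 0.05, and none was at 0 in every library. *Parp9* followed the order of the libraries in the mean of these markers on the log2(FPKM + 1) scale (6.41, 5.89 and 5.78 in AdArmc5 KO, against 5.36, 6.25 and 5.38 in Armc5 flox). *Isg15* and *Usp18* did not, as both were highest in the library labelled AdArmc5 KO replicate 3, which was the lowest of its genotype in the macrophage markers. Within Armc5 flox alone, *Isg15* had the order of the marker mean (6.36, 8.69 and 7.64 in replicates 1, 2 and 3), and *Usp18* did not (3.90, 3.10 and 2.74). The part of macrophages in the results was not tested, and in bulk tissue fewer cells of a type and less RNA per cell cannot be told apart. The summed FPKM of 7 T cell markers was 6.06 to 13.1 in AdArmc5 KO and 6.64 to 10.1 in Armc5 flox, and that of 5 plasmacytoid dendritic cell markers was 19.6 to 29.2 in AdArmc5 KO and 21.9 to 26.5 in Armc5 flox. Most of the latter sum was *Tcf4* (15.4 to 22.1), while *Siglech* had 0.87 to 2.17. Its highest value, in the library labelled AdArmc5 KO replicate 3, included *Ly6d* at 10.3. The 5 B cell markers summed to 4.94 to 6.04 in AdArmc5 KO and 6.80 to 10.3 in Armc5 flox, lower in AdArmc5 KO without overlap.

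**Figure D4:**
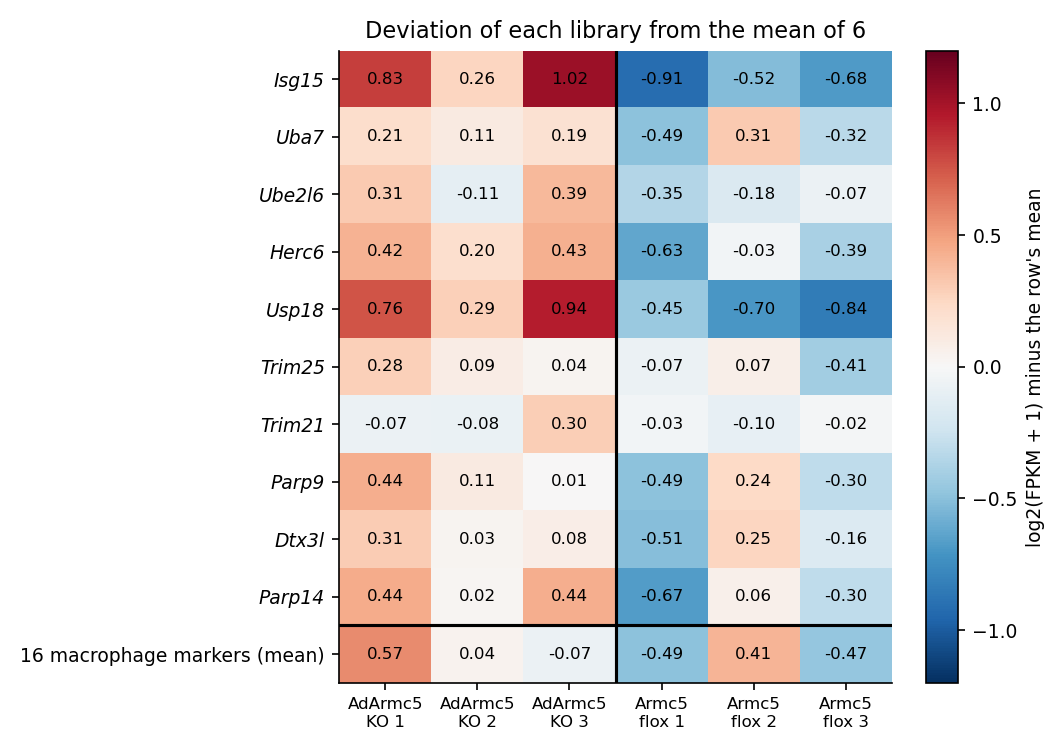
Log2(FPKM + 1) of each gene in each library minus its mean over the 6 libraries, with the mean of 16 macrophage markers in the row set off by a line and AdArmc5 KO in the left columns. *Isg15* and *Usp18* are high in all 3 AdArmc5 KO columns, while *Uba7*, *Parp9* and *Dtx3l* are also high in Armc5 flox replicate 2, as the macrophage markers are.

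The libraries with the most epithelial transcripts were left out as a choice made after the data were seen. Without AdArmc5 KO replicate 2 and Armc5 flox replicate 1, the log2 fold change was 1.53 for *Isg15*, 1.62 for *Usp18* and 0.64 for *Herc6*. With the library labelled AdArmc5 KO replicate 3 left out as well, which leaves AdArmc5 KO with a single library whose spread is taken from Armc5 flox, it was 1.43 for *Isg15*, 1.53 for *Usp18* and 0.63 for *Herc6*. These 3 genes kept their direction without these libraries, while Armc5 flox replicate 3, which held a smaller amount of epididymal transcripts, was kept. All AdArmc5 KO values exceeded all Armc5 flox values for 5 of the 10 genes in the first case, against 11% of all genes tested, and for 8 of the 10 in the second, against 32.3%.

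The genes with the profile most like that of *Isg15* over the 6 libraries were sought by the Euclidean distance between log2(FPKM + 1) values centred on the mean of each gene. The nearest were *Ifit1* (0.17), *Oasl1* (0.25), *Oasl2* (0.26), *Gbp6* (0.34) and *Ifit3b* (0.37), all interferon-inducible genes. *Usp18* was the 13th nearest at 0.54, *Herc6* the 67th and *Parp14* the 78th. *Ube2l6* was the 189th, and *Trim21* at the other end was the 1757th. The 5 genes are the nearest by definition. As the values were centred but not scaled, the distance reflects the size of the fold change as well as the order of the libraries.

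The wider families were examined through 8 lists of related genes with 100 tested members. An unadjusted p under 0.05 was reached by 12 of the 100 with higher expression in AdArmc5 KO (12%, against 2.18% of all genes tested) and by 1 with lower expression, and 0 passed an adjusted p of 0.05 from limma. Of the 12, 4 were TRIM genes of innate immunity, 3 were in the interferon receptor list and 3 were around RIG-I. The lists of other modifiers and of other ADP-ribosyltransferases held 1 each, and the remaining lists held 0. As the lists were written with earlier results of these data known, the 12% is a description and not a test. Among 14 other ubiquitin and ubiquitin-like modifiers, 7 had a log2 fold change above 0 and 7 below, with a median of −0.017. *Ubd*, which encodes the cytokine-inducible modifier FAT10, was the 1 with an unadjusted p under 0.05. Its FPKM was 26.04, 16.9 and 3.45 in AdArmc5 KO, against 5.17, 2.71 and 1.46 in Armc5 flox, so that the library labelled AdArmc5 KO replicate 3 lay below Armc5 flox replicate 1. Its log2 fold change was 1.75 (95% interval 0.047 to 3.46, adjusted p = 0.98 from limma). The other E1 and E2 enzymes gave none of 18 at that p, with log2 fold changes between −0.26 and 0.24. Of 11 further HERC genes and ligases or proteases linked to ISG15, none reached it either, and 9 had a log2 fold change below 0. Neither the general ubiquitin enzymes nor the relatives of *Herc6* therefore showed the fold changes of *Isg15* and *Usp18*.

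On the side of ADP-ribose, the list of 14 other ADP-ribosyltransferases had 1 member with an unadjusted p under 0.05, *Parp12*. Its FPKM was 17.5, 14.2 and 18.6 in AdArmc5 KO, against 11.1, 12.8 and 13.3 in Armc5 flox, without overlap and with a log2 fold change of 0.40 (adjusted p = 0.98 from limma). The median of this list was 0.048. Of 10 hydrolases of ADP-ribose and other Deltex ligases, 7 had a log2 fold change below 0 and the median was −0.11. *Macrod1*, which encodes a mitochondrial hydrolase that removes ADP-ribose from proteins, had an FPKM of 10.995, 16.2 and 11.03 in AdArmc5 KO, against 22.96, 19.4 and 21.5 in Armc5 flox. All AdArmc5 KO libraries were below all Armc5 flox libraries, and the log2 fold change was −0.71 (standard error 0.18, unadjusted p = 0.00635, adjusted p = 0.98 from limma).

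Of 11 other TRIM genes of innate immunity, 4 had an unadjusted p under 0.05, all higher in AdArmc5 KO, and the median was 0.31. They were *Trim30a* (log2 fold change 0.88), *Trim30d* (0.66), *Trim34a* (0.51) and *Trim14* (0.45). *Trim30a*, *Trim30d* and *Trim34a* belong to families of near-identical copies, between which reads may have been split. The fold changes of *Trim25* and *Trim21* were smaller than those of these 4 genes, which are those of the list with the smallest p. Beside the list's median of 0.31, *Trim25* had 0.27 and *Trim21* 0.10. Among 8 genes around the RNA sensor RIG-I, with which TRIM25 acts, 3 had an unadjusted p under 0.05. *Dhx58*, which encodes the RIG-I-like protein LGP2, had an FPKM of 8.21, 7.36 and 9.32 in AdArmc5 KO, against 2.58, 3.57 and 4.09 in Armc5 flox, with a log2 fold change of 1.08 (adjusted p = 0.65 from limma). *Ddx58*, which encodes RIG-I, and *Ifih1*, which encodes the sensor MDA5, had log2 fold changes of 0.51 and 0.49, and the adaptor gene *Mavs* one of −0.37. The fold changes of the sensors and of their adaptor thus had opposite signs.

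Upstream, the list of interferon receptor, JAK, STAT and IRF genes and their regulators held 14 tested members with a median of 0.098. Of these, 3 had an unadjusted p under 0.05, all higher in AdArmc5 KO. *Irf7*, a transcription factor that is itself interferon-inducible, had an FPKM of 40.2, 33.2 and 49.0 in AdArmc5 KO, against 13.05, 10.4 and 10.7 in Armc5 flox, and its log2 fold change of 1.74 had the lowest adjusted p of all genes (0.58 from limma). The log2 fold change was 0.63 for *Irf9* and 0.53 for *Stat2*, both subunits of ISGF3. *Irf3*, which is present without induction, had one of −0.30 and an FPKM of 28.3, 26.7 and 32.3 in AdArmc5 KO, against 32.6, 34.1 and 41.9 in Armc5 flox. *Socs1*, which encodes an inhibitor of JAK kinases and is named here after its value was seen, had the lowest log2 fold change of the list, −0.72 (unadjusted p = 0.115, adjusted p = 0.98 from limma). The interferon genes *Ifnb1* and *Ifng* were below the filter on low values.

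**Figure D5:**
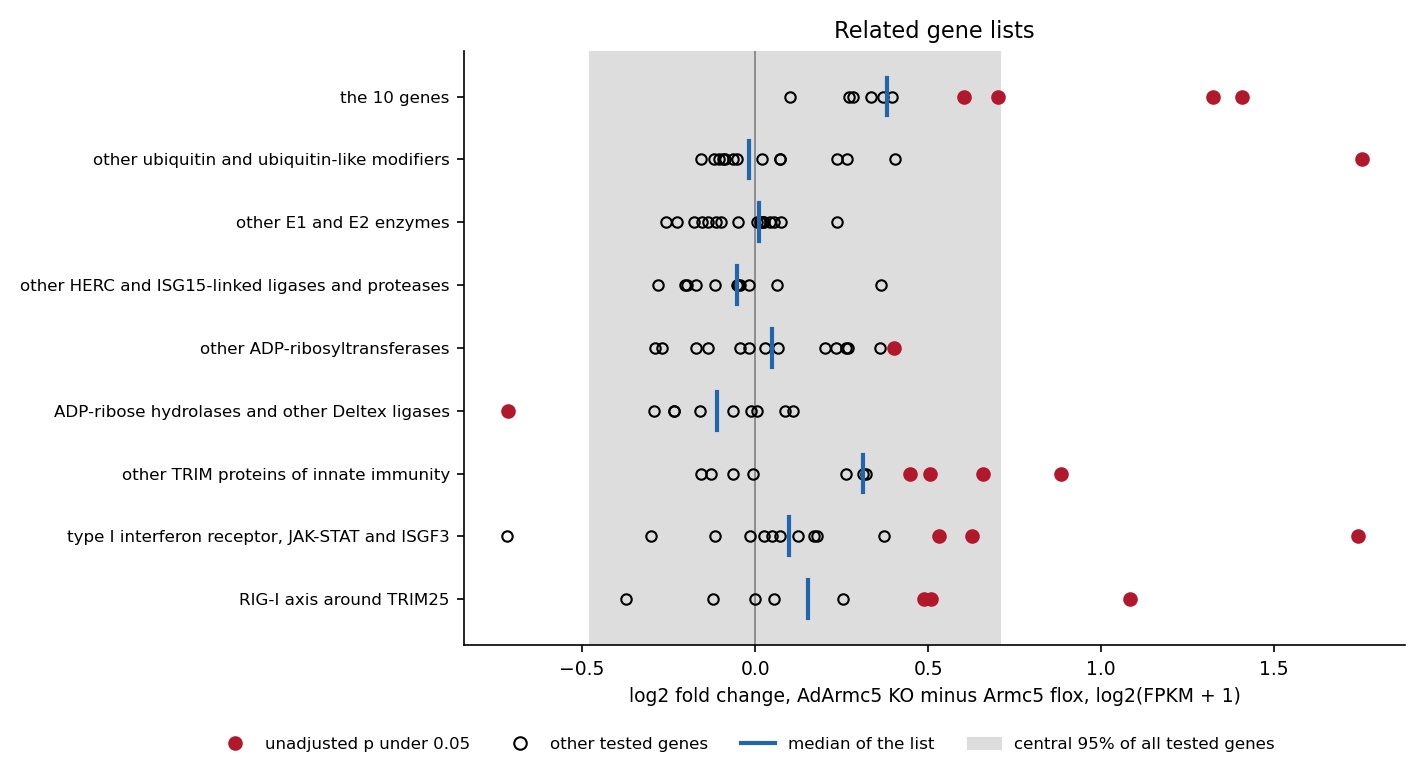
Log2 fold change, AdArmc5 KO minus Armc5 flox on log2(FPKM + 1), of each tested gene in the 10 genes and in 8 related lists. Red points have an unadjusted p under 0.05, blue bars are medians, and the grey band is the central 95% of all tested genes (−0.48 to 0.71). *Isg15* and *Usp18* lie outside the band, as do *Ubd*, *Irf7*, *Dhx58*, *Trim30a* and, below it, *Macrod1* and *Socs1*.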

How the data were processed

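Polyadenylated RNA of refed epididymal WAT was measured in 6 stranded, paired-end libraries, 3 of AdArmc5 KO and 3 of Armc5 flox, grouped by the labels' genotype. Per the labels and the study's methods, reads were mapped to mm10 with TopHat2 2.0.13, Bowtie2 2.2.3 and SAMtools 0.1.19, and the authors deposited FPKM from Cuffnorm 2.2.1. A second set of deposited values, normalized counts, is a signal that the authors scaled by 1 factor per library. The gene annotation is not given in the sources used here. Deposited fold changes and p-values, which compare the genotypes, and 6 columns of per-sample log2 values were not used.

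Depth was recovered from the normalized counts, of which 98.4% to 99.0% were whole multiples of 1 fragment within 0.1. Fragments were not recovered for all genes, so tests for counts were not run. Counting error is part of the spread between libraries and was not modelled apart from it. Genes reaching an FPKM of 1 in at least 3 of 6 libraries (12670 genes) were fitted as log2(FPKM + 1) with limma 3.58.1 in R 4.3.3, with a mean-variance trend and genotype as the only term, with Benjamini-Hochberg adjustment over all genes tested. On this scale the change of a gene with a low FPKM is understated. The fit was tested on simulated data. The p-values measure the spread between these 6 mice. Ratios were tested with a two-sided exact permutation test of 3 against 3 libraries, which cannot go below p = 0.1.

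The genes named are the 10 members, up to 4 genes with the smallest p in each of 8 related lists, the 5 nearest profiles to *Isg15*, and *Armc5*. Marker genes, *Scd1*, *Socs1*, *Usp41* and the interferon genes below the filter are named outside this rule. The members and lists were chosen with earlier results of these data known. Coordinates and promoter windows are from RefSeq (GRCm38.p6). The fit was repeated with a pseudocount of 0.1 or 0.5, with the minimum FPKM in 1 library or no minimum, without the trend, with a replicate block, after quantile normalization or scaling to trimmed means of M values, on the normalized counts, and with each library left out in turn. Leaving out the libraries with the most epithelial transcripts was added after the data were seen.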

Additional observations from a re-analysis of the deposited data

How the results depend on the processing

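Under each of 15 other settings and 2 more chosen after seeing the data, 0 of the 10 genes passed an adjusted p of 0.05 from limma. Each log2 fold change stayed above 0 except that of *Trim21*, which was −0.025 without the library labelled AdArmc5 KO replicate 3 and −0.014 when AdArmc5 KO replicate 2 and Armc5 flox replicate 1 were left out with it. With 1 library left out, the log2 fold change was 1.25 to 1.63 for *Isg15*, 1.18 to 1.51 for *Usp18*, 0.56 to 0.86 for *Herc6*, 0.42 to 0.79 for *Parp14* and −0.025 to 0.16 for *Trim21*. The median of the 10 was 0.31 to 0.58, the highest being without Armc5 flox replicate 2.

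The number of genes with all AdArmc5 KO values above all Armc5 flox values, 3 as reported, was 6 after scaling to trimmed means of M values (4.63% of all genes tested) and 5 after quantile normalization (3.45%). It was 3 to 8 with 1 library left out, with 5 when this was AdArmc5 KO replicate 2 (5.75%) and 8 when it was Armc5 flox replicate 2 (11.1%). It was 5 without both libraries with ciliated transcripts (11%) and 8 without the 3 with the most epithelial transcripts (32.3%). The cause was not tested, beyond that fewer libraries make overlap rarer.

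The replicate numbers did not pair the samples throughout, since the correlations of deviations of same-numbered libraries were −0.53, −0.41 and 0.58. Across numbers, the correlation was 0.75 for AdArmc5 KO replicate 2 with Armc5 flox replicate 1. It was 0.68 for AdArmc5 KO replicate 1 with Armc5 flox replicate 2, and −0.49 to −0.036 for the remaining combinations. The study compared littermates, but the labels do not say which libraries these are, and a block by these matches was not fitted. With the replicate number as a block, 0 of the 10 passed the adjusted p and the lowest adjusted p was 0.96. The planned tests for counts were not run because whole reads were not recovered for all genes. Depth limits *Usp18* and *Isg15* the most, which rested on as few as 118 and 120 fragments in a library.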
